A study of Homo sapiens with 3 samples.

Results

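The circadian clock genes described here are PER1, PER2, PER3, CRY1, CRY2, NR1D1, NR1D2, DBP, CLOCK and BHLHE40. They were chosen as a named list by matching gene symbols to Ensembl identifiers, and all 10 were found among the 58735 genes counted. Expression was measured by RNA-seq in HaCaT cells, an immortalised human keratinocyte line labelled WT, in 3 libraries of total RNA. Carbon black (CB) was given to the first culture at 25 µg/mL and the particulate sample S1650b to the second at 50 µg/mL, while the Control culture received no particles. The particles were given for 24 h in DMEM without serum, after growth in DMEM with serum, and the labels do not describe the Control medium separately. The series asks how such particles act on the epidermal barrier, on oxidative stress and on damage to DNA. Each group holds 1 library, so no difference below has a replicate check and no p-value is given. The 2 particle samples differ in dose as well as in kind, and these cannot be told apart. Each culture was read at 1 time, so a change in the level of a rhythmic gene and a change in its phase cannot be told apart. In bulk RNA, fewer cells of a type and less RNA per cell cannot be told apart either.

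The mammalian clock is a transcriptional feedback loop that runs in nearly every cell, skin keratinocytes included. CLOCK and its partner BMAL1 bind E-box sequences and switch on the PER and CRY genes, whose proteins then inhibit CLOCK and BMAL1. A second loop runs through NR1D1 and NR1D2, nuclear receptors that repress BMAL1, and outputs such as DBP carry the rhythm to other genes. BHLHE40 is a repressor that competes for the same E-boxes and is also induced by many stimuli, hypoxia and serum among them. In cultures that have not been synchronised, single cells cycle out of step, and a bulk level averages over them.

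The libraries held 20946139 (CB), 20417744 (S1650b) and 20658247 (Control) gene counts, and 14619 genes reached 1 CPM (a count after TMM scaling for library size and composition) in at least 1 library. The 8 keratinocyte markers were all detected, with a summed level of 11560 CPM in CB, 5796 in S1650b and 12800 in Control. Of these, KRT5, KRT14 and KRT6A were lower in S1650b than in Control, and the other 5 (TP63, KRT17, ITGA6, DSP and CDH1) were higher. Fibroblast markers summed to 30.4, 12.9 and 92.8 CPM in CB, S1650b and Control, with COL1A2 and PDGFRA at 0 in Control. Endothelial markers summed to 28.2, 44.1 and 54.6 CPM in that order of libraries, and CLDN5 and ERG were at 0 in S1650b and in Control. Melanocyte markers lay between 8.23 and 9.72 CPM with TYR and DCT at 0 in every library, and leukocyte markers between 1.75 and 9.01 CPM with CD68 at 0 in every library. In Control these sums came mostly from a few genes. CD74 (178 counts) was the only leukocyte marker with counts there. CDH5 (1013) held most of the endothelial counts, and DCN (1067) and COL3A1 (638) most of the fibroblast counts. The part of these marker levels in the clock gene values was not tested.

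All 10 clock genes passed the filter of 1 CPM. On the length-corrected FPKM scale, BHLHE40 had the highest level of the 10 in each library, at 17.2 in CB, 25.4 in S1650b and 10.5 in Control. PER3 had the lowest in each, at 0.929, 0.904 and 0.679 FPKM in CB, S1650b and Control. BHLHE40 stood above 78.7% of all tested genes in CB, 88.9% in S1650b and 71.0% in Control, while PER3 stood above 21.6, 17.9 and 15.8%. The order between these ends differed among the libraries. CRY1 was second in CB at 5.86 FPKM, followed by NR1D1 at 5.53. NR1D2 was second in S1650b at 6.71 FPKM, followed by CRY1 at 4.61. NR1D1 was second in Control at 6.61 FPKM, followed by CRY1 at 3.70 and DBP at 3.54. NR1D2, which stood second in S1650b, had rank 6 in CB at 2.55 FPKM and rank 5 in Control at 3.30 FPKM. DBP had rank 9 in CB at 1.67 FPKM and in S1650b at 1.61 FPKM, and rank 4 in Control.

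**Figure D1:**
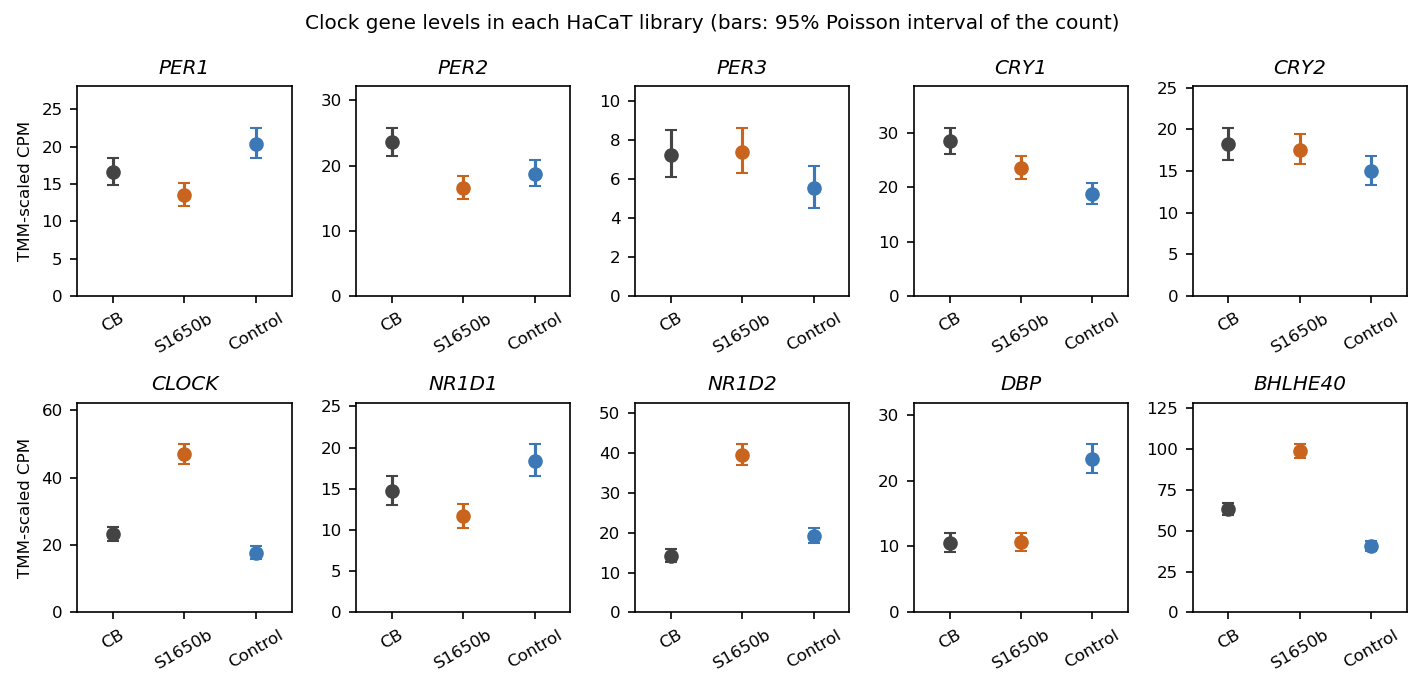
Level of each clock gene in the 3 libraries, in TMM-scaled CPM, with CB and S1650b left of Control. Points are single libraries and bars are 95% Poisson intervals that cover counting error only; CLOCK, NR1D2 and BHLHE40 were highest in S1650b, and DBP was highest in Control.

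The stretches of DNA before the annotated starts of the members that moved most are shown with the clock motifs found in them. They come from the RefSeq promoter table on GRCh38.p14, in which all 10 members matched with 14 starts, and each is printed 5′ to 3′ on the gene's own strand. Capitals mark matches to the letters searched on both strands: the E-box CACGTG and the related CACGTT (both bound by CLOCK and BMAL1), the D-box TTATGTAA or TTACGTAA (bound by DBP), TAGGTCA (bound by the NR1D receptors and RORA) and the cAMP response element TGACGTCA. No match overlapped another in these windows. Bases that GENCODE 29 places in an exon were left out, which removed the whole window of BHLHE40, so only the 30 bases around its E-box are given. NR1D2 and NR1D1 are set together as paralogues whose levels parted in S1650b, CLOCK as the activator, and DBP as the member lower in both particle libraries. NR1D2 covers chr3:23945871-23946120 (plus strand), within an intron of the gene as GENCODE annotates it. NR1D1 covers chr17:40100726-40100839 (minus strand), CLOCK covers chr4:55545933-55546182 (minus strand, within an intron in GENCODE), DBP covers chr19:48637439-48637629 (minus strand) and BHLHE40 covers chr3:4979187-4979216 (plus strand).
NR1D2: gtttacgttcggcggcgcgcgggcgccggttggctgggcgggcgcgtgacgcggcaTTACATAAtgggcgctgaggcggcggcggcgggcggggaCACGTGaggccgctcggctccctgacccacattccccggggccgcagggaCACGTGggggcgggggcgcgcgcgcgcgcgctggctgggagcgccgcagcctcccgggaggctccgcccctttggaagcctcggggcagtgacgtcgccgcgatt
NR1D1: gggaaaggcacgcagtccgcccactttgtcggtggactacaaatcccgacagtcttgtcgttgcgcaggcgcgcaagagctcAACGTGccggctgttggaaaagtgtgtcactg
CLOCK: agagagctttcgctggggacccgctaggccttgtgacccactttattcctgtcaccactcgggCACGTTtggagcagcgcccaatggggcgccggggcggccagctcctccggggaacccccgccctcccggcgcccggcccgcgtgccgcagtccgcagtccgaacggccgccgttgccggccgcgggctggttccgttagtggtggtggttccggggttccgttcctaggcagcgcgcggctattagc
DBP: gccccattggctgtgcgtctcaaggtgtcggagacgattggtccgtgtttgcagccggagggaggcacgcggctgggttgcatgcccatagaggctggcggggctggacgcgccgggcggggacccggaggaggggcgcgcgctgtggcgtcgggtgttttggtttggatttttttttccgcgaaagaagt
BHLHE40: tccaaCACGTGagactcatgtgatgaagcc

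The NR1D2 window shown held 2 copies of CACGTG, 155 and 105 bases before its start, and a D-box match at 194 bases. NR1D2 and CLOCK each have 2 annotated starts, and only the one with matches is printed. The other start of each lies nearer the 5′ end of the gene, and its window held none of the letters searched. NR1D1 and CLOCK each held CACGTT, at 168 and 187 bases, and BHLHE40 held CACGTG at 245 bases. The DBP window held none of the letters searched, which says only that they are not in these 250 bases. Over all members, CACGTG was found in 3 (PER1, NR1D2 and BHLHE40) and CACGTT in 5 (PER2, CRY1, CRY2, NR1D1 and CLOCK), so that 8 of 10 members and 8 of 14 starts held one or the other. By start, 3 of 14 held CACGTG and 5 of 14 held CACGTT. Of all 35116 promoters of the same length, 6.34% held CACGTG and 4.55% held CACGTT. These shares count promoters, so they stand beside the counts of starts and not of members. The share with one or the other was not computed. A D-box match with T was found in PER3 and NR1D2 (2 of 14 starts) against 0.834% of all promoters, and TAGGTCA in CRY2 (1 of 14 starts) against 1.61%. The D-box with C (0.105% of all promoters) and the cAMP response element (1.65%) were found in 0 members. These matches are a description of letters, and the members with E-box letters moved in both directions in the comparisons that follow.

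**Figure D2:**
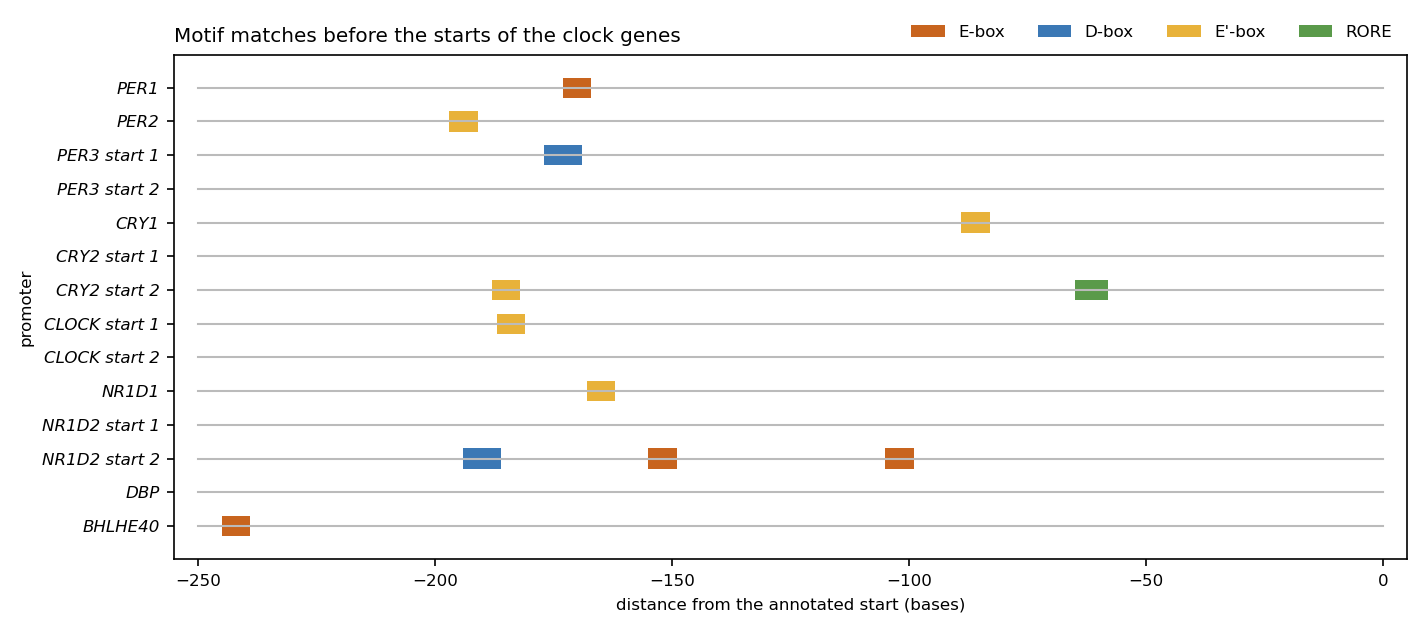
Motif matches in the 250 bases before each of the 14 annotated starts of the clock genes, by distance from the start in bases; where a gene has 2 starts they are numbered by genome position. E-box or CACGTT matches lie before 8 of the 14 starts, and no searched motif lies before that of DBP.

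A difference was counted where it reached 1.5-fold and where its 95% interval, which covers counting error only, lay wholly on 1 side of equality. In CB against Control, 2 members were higher (BHLHE40 and CRY1) and 1 was lower (DBP). Over all genes tested, 4.86% were higher and 10.5% were lower in that comparison. In S1650b against Control, 3 members were higher (CLOCK, BHLHE40 and NR1D2) and 3 were lower (DBP, NR1D1 and PER1). There the background was 22.1% higher and 19.2% lower, so these counts are not a result about the members as a group. In S1650b against CB, 3 members were higher (NR1D2, CLOCK and BHLHE40) and 0 were lower, beside a background of 26.1 and 20.8%. The median log2 fold of the 10 members was 0.30 in CB against Control, 0.28 in S1650b against Control and −0.02 in S1650b against CB. The median of all tested genes was 0.00, −0.04 and 0.01. The comparisons with Control share the Control library, so each is given with its own values below.

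**Figure D3:**
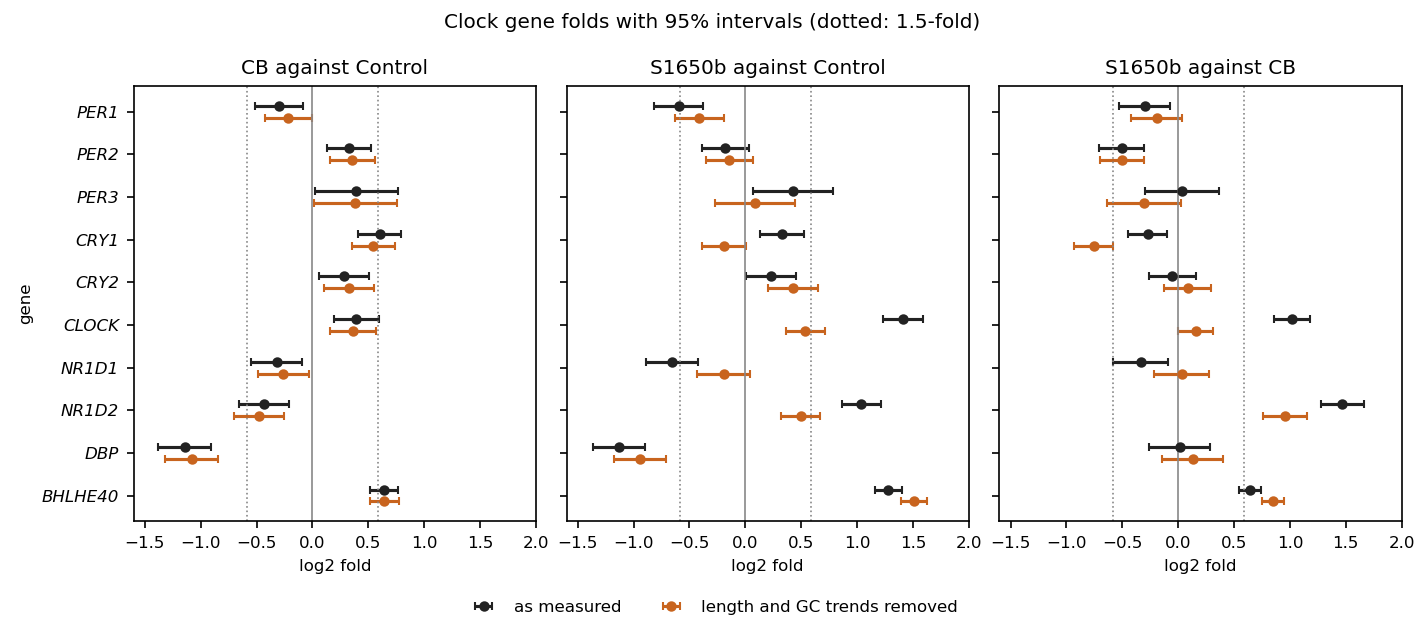
Log2 fold of each clock gene with its 95% counting interval in the 3 comparisons, as measured (black) and with the trends with gene length and GC content removed (orange); dotted lines mark 1.5-fold. BHLHE40 and DBP lie beyond 1.5-fold from Control in both particle libraries in either form, while the CLOCK fold in S1650b against Control was 2.66 as measured and 1.45 with the trends removed.

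CLOCK (ENSG00000134852, chromosome 4, 55427903 to 55547138, minus strand, GRCh38) encodes the DNA-binding activator of the loop. It had 465 counts in CB, 1047 in S1650b and 349 in Control, or 23.2, 46.9 and 17.7 CPM. The S1650b library stood above the others beyond counting error. S1650b was 2.66-fold higher than Control (2.35 to 3.01) and 2.02-fold higher than CB (1.81 to 2.26). CB against Control gave 1.31 (1.14 to 1.51), short of 1.5-fold. CLOCK has long exons (11762 bases in union) and a GC content of 37.2%, and in S1650b long and AT-rich transcripts were higher as a class. With the trends of all genes with length and GC removed, the CLOCK fold in S1650b against Control was 1.45 (1.29 to 1.64) and that against CB was 1.11 (0.997 to 1.24), and neither was counted as higher.

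PER1 (ENSG00000179094, chromosome 17, 8140472 to 8156506), the repressor gene of the PER family that responds fastest to glucocorticoid and cAMP signals, had 333 counts in CB, 301 in S1650b and 403 in Control. Those counts were 16.6, 13.5 and 20.4 CPM, lowest in S1650b. S1650b was 1.51-fold lower than Control (1.30 to 1.76), just past the threshold, and 1.33-fold lower with both trends removed. CB was 1.23-fold lower than Control (1.06 to 1.42), which does not reach 1.5-fold. PER2 (ENSG00000132326, chromosome 2, 238244038 to 238290102), which like PER1 encodes a partner of the CRY proteins, had 472, 370 and 371 counts, or 23.5 CPM in CB, 16.6 in S1650b and 18.8 in Control. Its CB level was 1.254 times that of Control (1.09 to 1.44) and its S1650b level was 1.13-fold lower than Control (0.978 to 1.31), so PER2 was counted in neither direction. PER3 (ENSG00000049246, chromosome 1, 7784320 to 7845177), the least abundant member, had 145, 165 and 109 counts, or 7.23 CPM in CB, 7.40 in S1650b and 5.52 in Control. Its folds against Control were 1.31 in CB (1.02 to 1.696) and 1.34 in S1650b (1.05 to 1.72), the widest intervals among the members.

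As measured, PER1 was thus below Control and PER3 above it in both particle libraries, though only PER1 in S1650b reached 1.5-fold. The ratio of PER1 to PER2, in which the scaling of the libraries cancels, was 0.693 by FPKM in CB, 0.799 in S1650b and 1.07 in Control. Relative to Control, this ratio was 1.54-fold lower in CB (1.26 to 1.89) and 1.34-fold lower in S1650b (1.08 to 1.65). PER1 to PER3 was 2.66 in CB, 2.11 in S1650b and 4.28 in Control, which is 1.61-fold lower in CB (1.20 to 2.17) and 2.03-fold lower in S1650b (1.51 to 2.72). With the length and GC trends removed, PER1 to PER2 was 1.49-fold lower in CB and 1.21-fold lower in S1650b, and PER1 to PER3 was 1.51-fold and 1.41-fold lower. The pairs compared by ratio here and below were chosen with the values known, and the ratios themselves are given by FPKM, which corrects for length.

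CRY1 (ENSG00000008405, chromosome 12, 106991364 to 107093829), the repressor that closes the loop with the PER proteins, had 571 counts in CB, 526 in S1650b and 371 in Control. On the CPM scale these were 28.5, 23.6 and 18.8, so both particle libraries stood above Control. CB was 1.52-fold higher than Control (1.33 to 1.73), at the edge of the rule, and 1.46-fold with both trends removed. S1650b gave 1.26 against Control (1.10 to 1.44) as measured and 0.876 with both trends removed, so the direction in S1650b depends on that step. CRY2 (ENSG00000121671, chromosome 11, 45847118 to 45883248), its paralogue, had 365, 392 and 296 counts, or 18.2 CPM in CB, 17.6 in S1650b and 15.0 in Control. Its folds against Control were 1.21 in CB (1.04 to 1.42) and 1.17 in S1650b (1.01 to 1.37), and CRY2 was counted in neither direction. The CRY1 to CRY2 ratio by FPKM was 1.92 in CB, 1.64 in S1650b and 1.54 in Control. Its interval relative to Control was 1.01 to 1.53 in CB and 0.871 to 1.32 in S1650b. With both trends removed the CRY1 to CRY2 ratio was 1.16-fold that of Control in CB and 1.53-fold lower than Control in S1650b.

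NR1D2 (ENSG00000174738, chromosome 3, 23945260 to 23980618), which encodes the repressor REV-ERB beta, had 286 counts in CB, 881 in S1650b and 380 in Control, or 14.3, 39.5 and 19.2 CPM. S1650b stood above both other libraries, and CB stood below Control. S1650b was 2.05-fold higher than Control (1.82 to 2.32) and 2.77-fold higher than CB (2.42 to 3.17). CB was 1.35-fold lower than Control (1.15 to 1.58), short of the threshold. With both trends removed the S1650b fold was 1.41 against Control (1.248 to 1.59) and 1.94 against CB (1.69 to 2.22), so the difference from CB was still counted and the one from Control was not. NR1D1 (ENSG00000126368, chromosome 17, 40092787 to 40100725), which encodes REV-ERB alpha, went the other way in S1650b. It had 295 counts in CB, 260 in S1650b and 363 in Control, or 14.7, 11.7 and 18.4 CPM. S1650b was 1.58-fold lower than Control (1.34 to 1.86), and 1.14-fold lower with both trends removed. CB was 1.249-fold lower than Control (1.07 to 1.46). Exons of THRA on the opposite strand overlap 9.49% of the NR1D1 exons, and THRA had 478, 435 and 540 counts in CB, S1650b and Control. Whether counting used the strand is not given, so those reads cannot be told apart.

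The 2 receptor genes parted in S1650b. The NR1D2 to NR1D1 ratio by FPKM was 0.462 in CB, 1.61 in S1650b and 0.499 in Control, so per length NR1D2 was above NR1D1 in S1650b and below it in CB and in Control. Against Control this ratio was 3.24-fold higher in S1650b (2.64 to 3.97), while the interval in CB, 0.741 to 1.16, includes 1. These paralogues differ in GC content, 38.5% in NR1D2 and 59.5% in NR1D1. With the length and GC trends removed the ratio in S1650b was 1.61-fold that of Control and 1.89-fold that of CB.

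DBP (ENSG00000105516, chromosome 19, 48630030 to 48637438), a D-box activator that is among the strongest cycling outputs of CLOCK and BMAL1 in mouse liver, had 211 counts in CB, 237 in S1650b and 459 in Control. That is 10.5 CPM in CB, 10.6 in S1650b and 23.2 in Control, so the particle libraries did not differ beyond counting error and both stood below Control. CB was 2.21-fold lower than Control (1.87 to 2.61) and S1650b was 2.19-fold lower (1.87 to 2.57). S1650b against CB gave 1.01 (0.835 to 1.22). Among tested genes, 4.54% had a smaller log2 fold than DBP in CB against Control and 6.31% had in S1650b against Control. With both trends removed DBP was 2.12-fold lower in CB and 1.92-fold lower in S1650b. Exons of SPHK2 on the opposite strand overlap 10.1% of the DBP exons, and SPHK2 had 484 counts in CB, 224 in S1650b and 394 in Control. Reads from the shared bases cannot be told apart here either.

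BHLHE40 (ENSG00000134107, chromosome 3, 4979116 to 4985323), the E-box repressor also called DEC1, had 1268 counts in CB, 2199 in S1650b and 802 in Control. Its levels of 63.2, 98.6 and 40.6 CPM separate the 3 libraries beyond counting error, with S1650b highest and Control lowest. CB was 1.56-fold higher than Control (1.42 to 1.704), and S1650b was 2.43-fold higher than Control (2.24 to 2.64) and 1.56-fold higher than CB (1.45 to 1.67). With a GC content of 52.0% and exons of 3837 bases, BHLHE40 lay in neither the AT-rich nor the long genes that were higher in S1650b as a class. Removal of both trends gave 1.56 in CB and 2.84 in S1650b against Control. BHLHE41, its close paralogue (DEC2), had 385 counts in CB, 830 in S1650b and 706 in Control, and was 1.86-fold lower in CB (1.64 to 2.11). The ratio of BHLHE40 to BHLHE41 by FPKM was 3.39 in CB, 2.73 in S1650b and 1.17 in Control, 2.90-fold higher than Control in CB (2.48 to 3.39) and 2.33-fold higher in S1650b (2.05 to 2.66).

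The S1650b values of the members are set here beside the trends of all genes with base composition and length. Among all tested genes, the median log2 fold in S1650b against Control was 0.53, 0.14, −0.22 and −0.39 in 4 equal bins of rising GC content. In CB against Control the same medians were 0.06, 0.03, −0.02 and −0.06. By exon length, the medians in S1650b against Control were −0.30, −0.20, 0.02 and 0.37 in 4 equal bins of rising length. The members in the lowest GC bin are CLOCK (37.2%), CRY1 (37.2%) and NR1D2 (38.5%). Those in the highest are CRY2 (57.0%), DBP (57.8%), NR1D1 (59.5%) and PER1 (62.7%). CLOCK and NR1D2 were counted as higher in S1650b against Control, and DBP, NR1D1 and PER1 as lower. CRY1 and CRY2 were counted in neither direction. CRY2 stood above Control (1.17, 1.01 to 1.37), opposite to the median of its bin. With both trends removed, the members counted in S1650b against Control came to 1 higher (BHLHE40) and 1 lower (DBP), beside a background of 14.7 and 17.3%. In CB against Control they came to 1 higher (BHLHE40) and 1 lower (DBP), beside 5.38 and 9.77% of all genes. In S1650b against CB they came to 2 higher (NR1D2 and BHLHE40) and 1 lower (CRY1), beside 19.2 and 21.1%. CRY1 was 1.69-fold lower there with the trends removed and 1.21-fold lower as measured. What gave rise to the trends was not tested, and neither was their part in the values of the members.

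**Figure D4:**
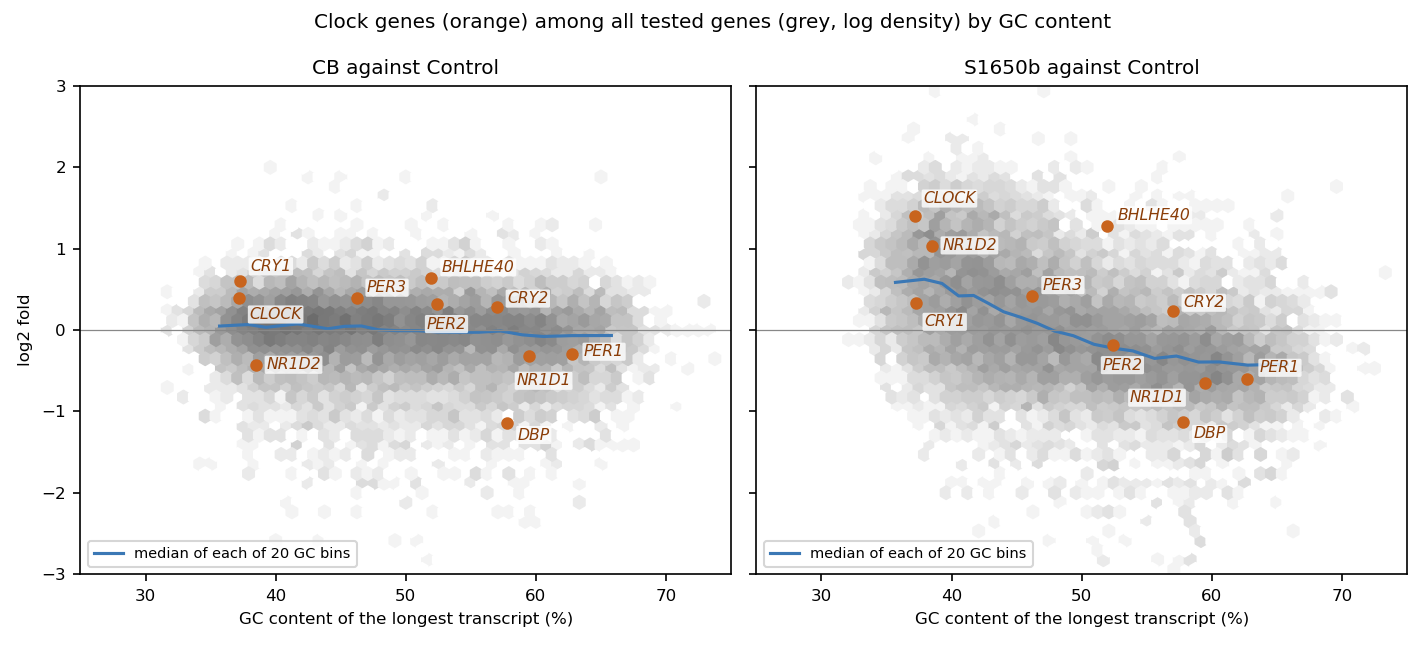
Log2 fold of all tested genes (grey hexagons, darker where more genes lie) and of the clock genes (orange) by GC content in percent, for CB and for S1650b against Control; the blue line joins the medians of 20 bins of GC content, and the vertical axis ends at 3 in each direction. In S1650b the line falls with GC content. CLOCK, CRY1 and NR1D2 lie in its low-GC part, and CRY2, DBP, NR1D1 and PER1 in its high-GC part. CRY2 stands above Control there, and BHLHE40, CRY2 and DBP lie off the line.

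Of 42 other genes of the clock, 37 were tested. In CB against Control 2 were higher and 1 was lower, and in S1650b against Control 11 were higher and 4 were lower, or 4 and 5 with both trends removed. In S1650b against CB the counts were 10 higher and 5 lower. The genes higher in S1650b include NPAS2 and RORA, which passed the 1 CPM filter only through S1650b. With a filter of 5 CPM in at least 1 library, 9 were higher in S1650b against Control and 8 against CB. Over all genes the shares were 4.86% higher and 10.5% lower in CB against Control, 22.1 and 19.2% in S1650b against Control (14.7 and 17.3% with both trends removed) and 26.1 and 20.8% in S1650b against CB, so the S1650b counts are near the background. Their median log2 fold was 0.09 in CB and 0.06 in S1650b against Control. BMAL1 (ARNTL), the partner of CLOCK and the main target of the NR1D repressors, had 370 counts in CB, 933 in S1650b and 484 in Control. It was 1.71-fold higher in S1650b than in Control (1.53 to 1.91), or 1.28-fold with both trends removed, and 1.33-fold lower in CB (1.16 to 1.52). In S1650b against Control, BMAL1 and NR1D2 were thus both higher as measured and neither was counted with both trends removed. In CB both were below Control but short of 1.5-fold. In S1650b against CB, BMAL1 was 2.27-fold higher (2.01 to 2.56). With both trends removed that fold was 1.72 (1.52 to 1.95), and like that of NR1D2 it was still counted. The CLOCK to BMAL1 ratio was 1.74-fold higher than Control in CB (1.43 to 2.13) and 1.56-fold higher in S1650b (1.32 to 1.84). With both trends removed this ratio was 1.74-fold that of Control in CB and 1.13-fold in S1650b. BMAL2 (ARNTL2), a paralogue of BMAL1, had 1366, 1691 and 1155 counts in CB, S1650b and Control and was counted in neither direction against Control. NPAS2, which can replace CLOCK, had only 18 counts in CB, 44 in S1650b and 7 in Control. Its fold was 2.53 in CB (1.01 to 7.18) and 5.57 in S1650b (2.49 to 14.6). NPAS2 reached 1 CPM only in S1650b, so it passed the filter through the library where it was highest.

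RORA, which activates BMAL1 where the NR1D receptors repress it, had 7, 30 and 7 counts in CB, S1650b and Control. It was 3.79-fold higher in S1650b than in Control (1.63 to 10.2), and with both trends removed the interval was 0.830 to 5.20. Like NPAS2, RORA reached 1 CPM only in S1650b. HLF, a relative of DBP, had 1 count in CB, 2 in S1650b and 2 in Control and was not tested. TEF, another D-box activator of the DBP family, had 727 counts in CB, 505 in S1650b and 691 in Control. TEF was 1.55-fold lower in S1650b (1.38 to 1.74), or 1.28-fold and no longer counted with both trends removed, and 1.04-fold higher in CB (0.933 to 1.15), so TEF was not counted in CB, where DBP was lower. The DBP to TEF ratio was 2.29-fold lower in CB (1.88 to 2.79) and 1.42-fold lower in S1650b (1.16 to 1.73) than in Control. NFIL3, which represses D-boxes, had 268, 236 and 229 counts, and CIART, a repressor of CLOCK and BMAL1, had 20, 18 and 26, and neither was counted in any comparison with Control. NOCT, a rhythmic phosphatase, was 1.89-fold higher in CB (1.38 to 2.61), with 121 counts in CB and 63 in Control. In S1650b NOCT had 99 counts and was 1.39-fold higher than Control (1.004 to 1.94), short of 1.5-fold. With both trends removed its S1650b fold was 1.80 (1.30 to 2.51) and was counted as higher.

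Among proteins that act on the core loop, the 13 tested kinases, phosphatases and ligases held 2 higher and 1 lower in S1650b against Control. The 14 coregulators held 6 higher and 1 lower, beside 22.1% of all genes higher and 19.2% lower. With both trends removed, 1 and 3 were counted in the first group and 1 and 1 in the coregulators, beside 14.7 and 17.3%. KDM5A, a histone demethylase that works with CLOCK and BMAL1, had 374 counts in CB, 1387 in S1650b and 334 in Control and was 3.68-fold higher in S1650b (3.26 to 4.16). BTRC, a ubiquitin ligase subunit that marks PER proteins for breakdown, was 2.28-fold higher (1.97 to 2.63), with 248, 689 and 268 counts. NCOR1, the corepressor of the NR1D receptors, was 2.03-fold higher (1.91 to 2.16), and GSK3B, a kinase of clock proteins, 1.96-fold (1.84 to 2.09). With both trends removed, KDM5A was 2.29-fold and BTRC 1.88-fold higher, while NCOR1 gave 1.32 and GSK3B 1.33. TIMELESS, which in mammals works chiefly at the replication fork, was 2.99-fold lower in S1650b (2.77 to 3.24), with 2701, 892 and 2364 counts in CB, S1650b and Control. In CB against Control, 0 of the 13 tested kinases, phosphatases and ligases and 0 of the 14 coregulators were counted, beside 4.86% of all genes higher and 10.5% lower.

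**Figure D5:**
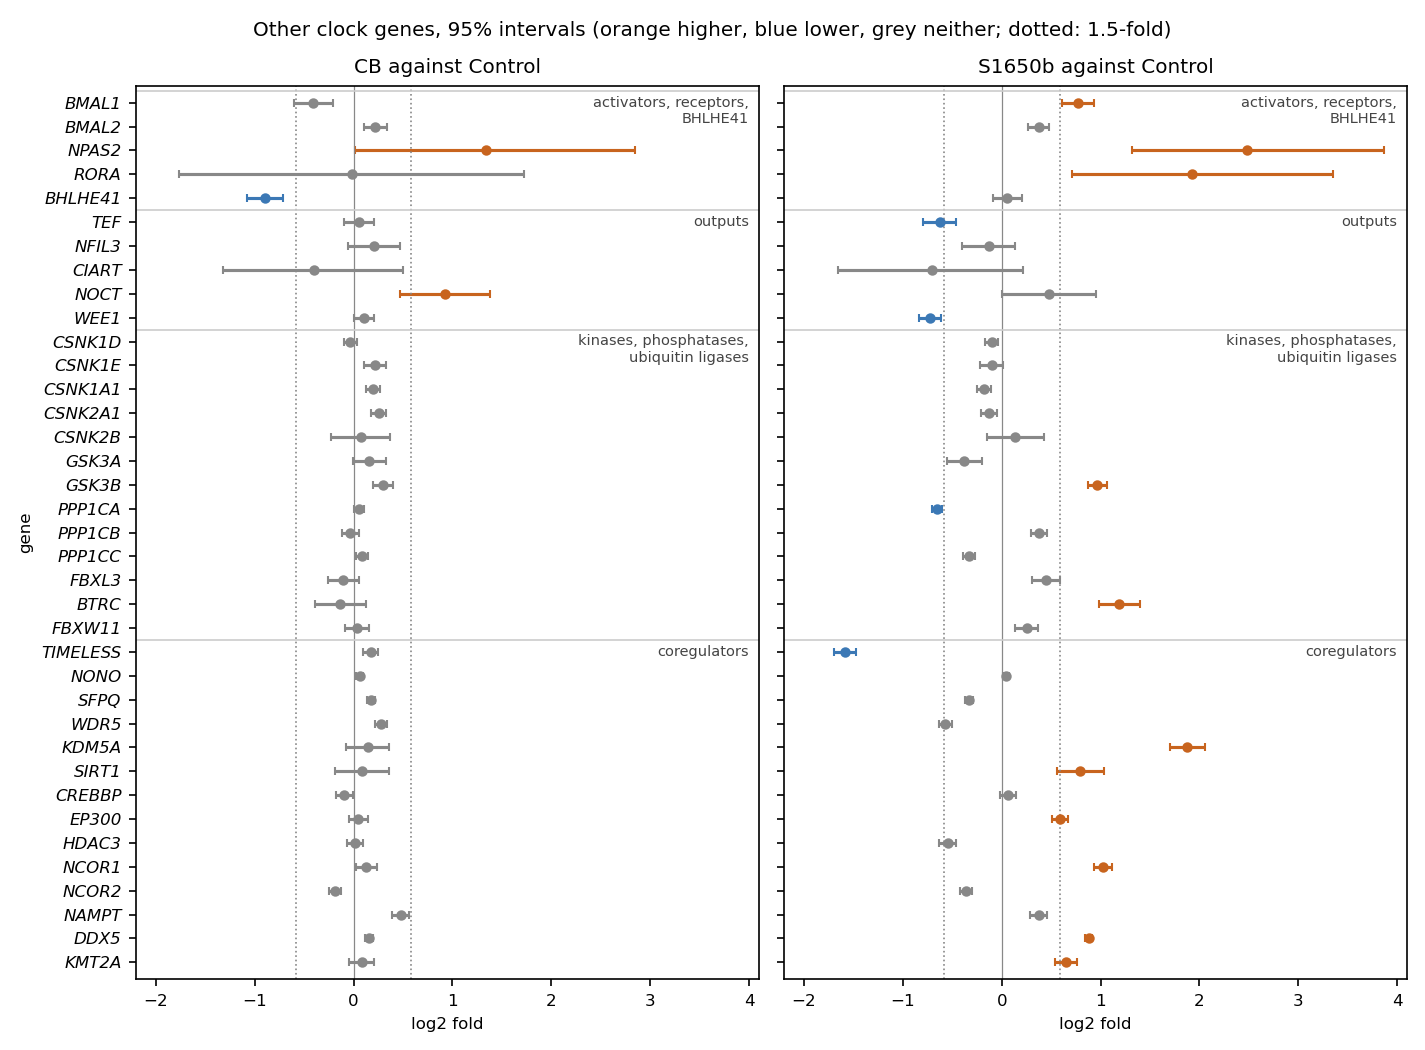
Log2 fold with 95% counting interval of the 37 tested other clock genes against Control in CB (left) and S1650b (right), grouped by role; orange is higher, blue lower and grey neither, and dotted lines mark 1.5-fold. In CB the coloured genes are NPAS2, NOCT and BHLHE41, and in S1650b 11 are orange and 4 are blue.

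PER1 and BHLHE40 also respond to glucocorticoid, cAMP and serum signals, so 12 genes known to respond to glucocorticoid or cAMP were listed beside them, of which 10 were tested. In CB against Control 2 were higher and 1 was lower, beside 4.86 and 10.5% of all genes. In S1650b against Control 2 were higher and 1 was lower as measured, beside 22.1 and 19.2% of all genes, which is no more than the background. With both trends removed, 2 were higher and 3 were lower, beside 14.7 and 17.3%. FOS, an immediate early gene, had 422 counts in CB, 469 in S1650b and 207 in Control, and was 2.01-fold higher in each particle library, with intervals of 1.697 to 2.38 in CB and 1.6997 to 2.37 in S1650b. NR4A1, an immediate early nuclear receptor, was 2.34-fold higher in CB (1.62 to 3.42) and 1.79-fold higher in S1650b (1.23 to 2.65). TSC22D3, a glucocorticoid target also called GILZ, had 4292, 3101 and 5679 counts, and was 1.34-fold lower in CB (1.29 to 1.40) and 2.07-fold lower in S1650b (1.98 to 2.16). KLF9, a glucocorticoid-responsive repressor that cycles in human keratinocytes, had 31 counts in CB, 170 in S1650b and 141 in Control, 4.62-fold lower in CB (3.11 to 7.05). Other glucocorticoid-responsive genes of the list had more counts in CB than in Control but were not counted as higher. ZBTB16 and KLF15 had 0 counts in every library.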

How the data were processed

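RNA-seq libraries of HaCaT cells were compared in 3 groups of 1 library each. Per the labels' protocols, Trizol was used for extraction and a NEBNext Ultra RNA kit for the libraries. The deposited table of counts holds whole-number counts per Ensembl gene, and a second table holds FPKM values by the authors. CASAVA 1.7 and the mouse builds mm8 and mm9 are named in the submitters' processing notes, whereas the identifiers are human. No aligner, counter, strand setting or human build is given in the sources used here. GENCODE 29 holds all 58735 identifiers and is the source of GRCh38 positions, exon lengths and GC content (known for 14613 of the 14619 genes tested).

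The members, the gene lists, the rule for named genes, the call rules and the alternatives were chosen with earlier results of these data known. All members are named, with 10 fixed partners and paralogues, up to 8 other clock genes and up to 4 glucocorticoid or cAMP responsive genes per comparison, ranked by the interval end nearest to 1. 1 of the fixed genes is not reported here. Counts were scaled by TMM factors of 0.957 (CB), 1.09 (S1650b) and 0.956 (Control) from edgeR 4.0.16 in R 4.3.3, and genes with at least 1 scaled CPM in at least 1 library were tested. The fold of a gene is the ratio of its scaled CPM in 2 libraries, and 95% limits are Clopper-Pearson intervals of the binomial share of counts, conditional on the sum. Reads copied by PCR are not independent molecules, and intervals cover counting error only. For trends, 0.5 counts were added before log2, and a lowess curve (span 30%) on length, GC content or both was subtracted from each log2 fold. The code was tested on simulated data. Alternatives were scaling by total counts, DESeq2 1.42.0 median of ratios or upper quartile, the deposited FPKM with 0.1 added, no filter or 5 CPM, folds of 2 or 1.25, protein-coding genes, no mitochondrial genes and the trend removals. Tables were handled in Python 3.11.15 (pandas 2.3.3), intervals came from scipy 1.17.1, the lowess from statsmodels 0.14.6 and figures from matplotlib 3.10.9.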

Additional observations from a re-analysis of the deposited data

How the results depend on the processing

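Each fold rests on 1 library per group, so leaving out a replicate was not possible. No paired analysis was possible because each group holds 1 library. Scaling by total counts shifted every fold that involves S1650b by 0.19 on the log2 scale. Of 300 member folds under 10 alternatives, 264 moved by less than their counting interval and 36 moved further. The direction of a counted fold changed in 0. The unmoved folds include 30 under no filter and 30 under the 5 CPM filter, which change no fold. DBP (lower) and BHLHE40 (higher) against Control in both particle libraries, and NR1D2 in S1650b against CB, kept their call. This held under all 11 alternatives that leave the fold threshold at 1.5. Of the 11, no filter, the 5 CPM filter and protein-coding genes only change no member fold, so they could not change a call. The other calls each failed under some, of 11: CRY1 in CB against Control under 3, PER1 under 6, NR1D1 under 4, NR1D2 under 2 and CLOCK under 1 in S1650b against Control, and CLOCK under 3 and BHLHE40 under 1 (FPKM, 1.48) in S1650b against CB. In turn, PER3 in S1650b against Control was counted as higher under 1 (total counts), and in S1650b against CB PER2 was counted as lower under 1 and CRY1 under 2. The cause was not tested.

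Members higher in CB against Control numbered 2, and 1 under upper quartile scaling, GC removal or removal of both trends, 0 at a fold of 2 and 5 at the lower threshold tried. Members lower numbered 1, and 2 at the lower threshold. In S1650b against Control, members higher numbered 3, against 5 at the lower threshold and 1 with both trends removed. Members lower numbered 3, against 1 under total counts, GC removal, removal of both trends or a fold of 2. In S1650b against CB, members lower numbered 0, against 1 under removal of length, GC or both trends and 2 at the lower threshold.

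Other clock genes higher in CB against Control numbered 2, against 1 under upper quartile scaling, FPKM, a filter of 5 CPM or a fold of 2. Those lower numbered 1, against 0 at a fold of 2 and 2 at the lower threshold. In S1650b against Control, those higher numbered 11, against 5 at a fold of 2 and 4 with both trends removed, and those lower numbered 4, against 1 under total counts or a fold of 2 and 10 at the lower threshold. In S1650b against CB, those higher numbered 10, against 5 at a fold of 2, 6 with the length trend removed and 4 with both removed. Those lower numbered 5, against 3 under total counts, 1 at a fold of 2, 13 at the lower threshold and 9 with the length trend removed.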
